A study of Mus musculus with 20 samples.

Results

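Ptger3, Serpinf1, Tmem44, Gpr165, Sema4b, Col6a3, Crybb1 and Sox4 are 8 of the 21326 gene entries measured here, and were picked because their RNA was low in microglia of APP-KI mice. They were picked from these same data, so their fall in APP-KI against WT is the way they were found and is given as a description only. Asked here are whether the same genes are low in APP-KI mice that also lack C3ar1, and whether losing C3ar1 brings their RNA back. It is not stated which libraries with APP-KI the choice drew on. In mice without C3ar1 the genes were lower with APP-KI as well. No return with the loss of C3ar1 was called, in a comparison that called 0 of the 12405 genes tested higher.

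Microglia are the resident macrophages of the brain. Near deposits of amyloid-β they take on a state with high Apoe, Cst7, Lpl and Gpnmb, while genes typical of resting (homeostatic) microglia, such as P2ry12 and Tmem119, go down. C3ar1 encodes C3aR, a G protein-coupled receptor for the complement fragment C3a, and in the brain it is expressed mainly by microglia.

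RNA was sequenced from microglia of 20 mice, 1 library each, all 9 months old and on a C57BL/6 background. The sex of each is not given. The cells were sorted from dissociated brain as CD45-mid and CD11b-positive. APP-KI mice carry the NL-G-F knock-in, in which the mouse's own App gene has a humanized amyloid-β sequence with the Swedish, Iberian and Arctic mutations. C3aR-KO mice carry a germline knockout of C3ar1 in all cells, backcrossed to C57BL/6J before the cross to APP-KI. The 14 libraries not selected on C3aR came from WT (replicates 4 to 6), APP-KI (replicates 4 to 6), C3aR-KO (replicates 1 to 3) and APP-KI; C3aR-KO mice (replicates 1 to 5), which were littermates. The other 6 came from cells sorted for a Td-tomato reporter integrated in the C3ar1 locus and are labelled C3aR-positive WT and C3aR-positive APP-KI, 3 libraries each. Both of these groups carry the reporter allele.

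The libraries held between 13939559 and 76608464 reads on genes. Levels are printed as scaled values. For these, the reads of a gene were taken relative to the 75th percentile over genes in its library and multiplied by 35.1 in every library. They are not divided by gene length, so levels are compared within a gene. A log2 difference is the difference between groups in log2(scaled value + 1), and with this added 1 it understates changes at low values. It was tested by limma over the 12405 genes whose mean over the 14 libraries was at least 1, or the 12314 such genes in the 6 C3aR-positive libraries. A gene is called where its p, adjusted over all those genes, is under 0.05. All 8 genes were among those tested in both fits.

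Some libraries stood apart before any comparison. The 14 libraries fall into 2 series by their library numbers, each with all 4 genotypes, and the fit has a term for the series. Of all genes, between 22.0% and 25.8% had 0 reads in the libraries of the second series. In the first series the share was between 27.1% and 41.9% in 5 libraries, 18.2% in APP-KI; C3aR-KO replicate 2 and 0.502% in APP-KI replicate 5. APP-KI replicate 5 had reads for 1467 genes that were at 0 in the other 19 libraries, with a median scaled value of 0.627 and a highest of 5.48, where each other library had between 0 and 5 such genes. Low values in that library are therefore read with caution, and results are also given without it and without APP-KI; C3aR-KO replicate 2. Intervals, SD values and limits below cover the reads as counted, and it is not stated whether duplicate reads were removed by their molecular tags.

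C3ar1 itself shows how far the genotype labels hold. WT had scaled values of 275, 329 and 339, and APP-KI 165, 315 and 387. They were 68.0, 39.8 and 65.6 in C3aR-KO, and 80.2, 77.3, 69.3, 75.8 and 61.7 in APP-KI; C3aR-KO. All 8 knockout libraries thus lay below the 6 others of the unselected cells, as labelled. In the libraries labelled C3aR-positive WT they were 70.8, 81.0 and 37.5, the level of the knockouts, and in those labelled C3aR-positive APP-KI they were 382, 251 and 201. The reads on C3ar1 therefore do not show the sort in the C3aR-positive WT libraries. The sort and the library number series of these 6 libraries cannot be told apart, so no test was made between them and the other 14.

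The cell type label held in all 20 libraries. Each of the 10 microglia markers had reads in every library, with Csf1r, the receptor for the growth factors that keep microglia alive, at scaled values between 3002 and 9805. Tmem119 lay between 180 and 1950 and P2ry12 between 424 and 2325, with their lowest values in libraries with APP-KI. The sum of the 10 markers was lowest in APP-KI; C3aR-KO replicate 1 (9938) and APP-KI replicate 4 (11566), against 17574 to 31212 in the other 18 libraries. They hold the lowest Serpinf1 values of the unselected cells and both 0 values of Ptger3. In these libraries 41.9% and 37.9% of genes had 0 reads. The share was 40.4% and 38.8% in C3aR-KO replicates 1 and 2, with Ptger3 at 21.1 and 18.4. Serpinf1 was 136 and 78.6 there, the latter the lowest of the 9 libraries without APP-KI. The part of the genes at 0 in these values was not tested.

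**Figure D1:**
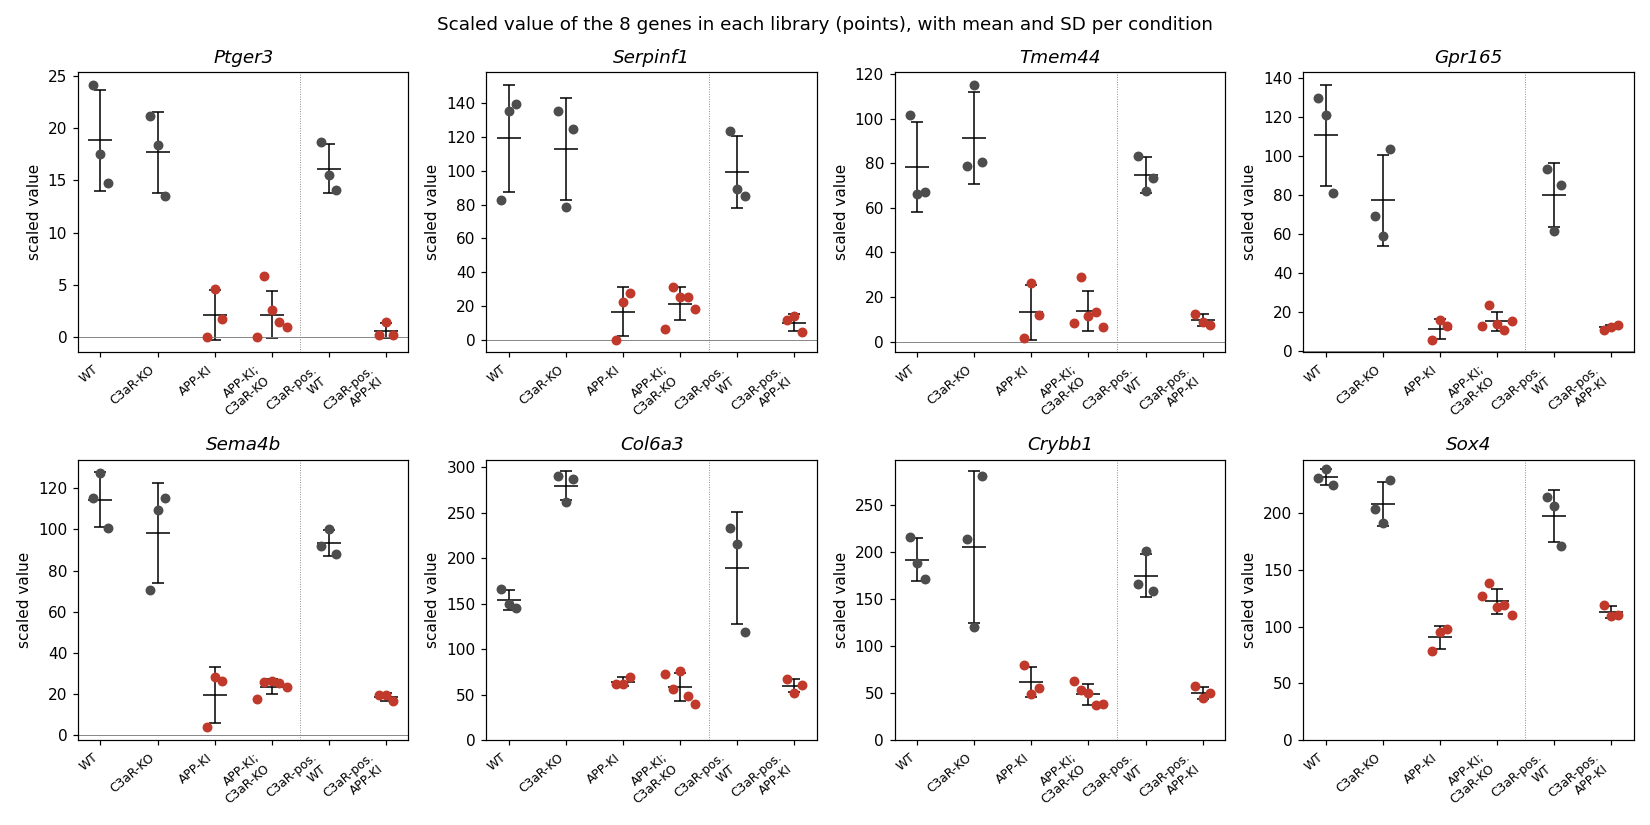
Scaled value of each of the 8 genes in each of the 20 libraries (vertical axis, from 0), by condition (horizontal axis). Each point is a library, red with APP-KI and grey without; dashes and bars are the mean and SD of a condition, and a dotted line separates the C3aR-positive libraries. For each gene the 9 libraries without APP-KI lie above the 11 with it, as for 2.35% of all genes.

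Ptger3 encodes EP3, a G protein-coupled receptor for prostaglandin E2. Its scaled value was 24.1, 17.5 and 14.8 in WT and 21.1, 18.4 and 13.5 in C3aR-KO. It was 0, 4.66 and 1.77 in APP-KI and 0, 5.83, 2.57, 1.44 and 0.968 in APP-KI; C3aR-KO. The low libraries are thus the ones with APP-KI, whether or not C3ar1 was present, and the APP-KI and APP-KI; C3aR-KO ranges overlap. By read counting alone, a 0 allows a value of up to 0.0631 in APP-KI replicate 4 and 0.0677 in APP-KI; C3aR-KO replicate 1. These limits do not cover differences between libraries, such as the many genes at 0 in these libraries, so the level may be higher. The 4.66 of APP-KI replicate 5 lies below the highest value that this library shows for genes at 0 elsewhere (5.48) but far above their median (0.627). How much of it is background was not tested. In the C3aR-positive libraries Ptger3 was 18.7, 15.5 and 14.1 in WT and 0.206, 1.47 and 0.235 in APP-KI.

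Gpr165 encodes an orphan G protein-coupled receptor. WT libraries had 129, 121 and 80.9, and C3aR-KO libraries 69.3, 59.2 and 104. With APP-KI it was 6.00, 15.8 and 12.8, and with APP-KI and no C3ar1 it was 12.8, 23.5, 13.9, 10.7 and 15.5. The groups with and without APP-KI are far apart, and within each kind the ranges with and without C3ar1 overlap. C3aR-positive cells had 93.0, 61.6 and 85.2 in WT and 11.1, 12.5 and 13.5 in APP-KI, with little spread in the latter.

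Serpinf1 encodes PEDF, a secreted member of the serpin family that does not inhibit proteases and acts on vessels and neurons. Its scaled value was 82.6, 136 and 139.8 in WT and 136, 78.6 and 125 in C3aR-KO. It was 0, 22.1 and 27.8 in APP-KI, where the 0 of replicate 4 allows up to 0.0631 by read counting alone. In APP-KI; C3aR-KO it was 6.12, 31.3, 25.4, 25.2 and 18.3. Serpinf1 spreads widely with APP-KI, from 0 reads to 31.3, and still no library with APP-KI reaches the lowest without it. In C3aR-positive cells it was 124, 89.2 and 85.1 in WT and 11.4, 14.2 and 4.71 in APP-KI.

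Sema4b encodes a transmembrane semaphorin, one of a family of guidance signals read by plexins. Its scaled value was 115, 127 and 101 in WT and 70.6, 109 and 115 in C3aR-KO. It was 3.81, 28.0 and 26.3 in APP-KI and 17.7, 26.0, 26.1, 25.1 and 23.3 in APP-KI; C3aR-KO. APP-KI replicate 4 is far below the other libraries with APP-KI, which lie close together. The C3aR-positive libraries had 92.1, 100.2 and 87.9 in WT and 19.8, 19.3 and 16.6 in APP-KI.

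Tmem44 encodes a membrane-spanning protein. Values of Tmem44 were 101, 66.1 and 67.3 in WT and 78.6, 115 and 80.4 in C3aR-KO. It was 1.66, 26.1 and 11.7 in APP-KI and 8.35, 28.9, 11.4, 13.3 and 6.31 in APP-KI; C3aR-KO. The highest values with APP-KI are those of APP-KI replicate 5 and APP-KI; C3aR-KO replicate 2, the libraries with the fewest genes at 0. In C3aR-positive cells Tmem44 was 83.2, 67.3 and 73.2 in WT and 12.5, 8.79 and 7.22 in APP-KI.

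Col6a3 encodes the α3 chain of collagen VI, a matrix protein. The WT libraries read 166, 150.1 and 145 and those of C3aR-KO 290.0, 261 and 288. It was 61.5, 61.1 and 69.9 in APP-KI and 72.5, 55.9, 76.4, 48.6 and 39.6 in APP-KI; C3aR-KO. Col6a3 is thus the member with a gap between WT and C3aR-KO, since each C3aR-KO library is above each WT library (9.16% of all genes show this). In C3aR-positive cells it was 234, 215 and 119 in WT and 67.0, 52.3 and 60.5 in APP-KI.

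Crybb1 encodes a β-crystallin, a structural protein of the lens that microglia also express. Its scaled value was 216, 188 and 171 in WT and 214, 120.3 and 281 in C3aR-KO. It was 80.1, 49.1 and 55.8 in APP-KI and 63.2, 53.7, 50.3, 37.7 and 38.1 in APP-KI; C3aR-KO. C3aR-KO is the most scattered condition of this gene, and even its lowest library is above those with APP-KI. In C3aR-positive cells Crybb1 was 166, 201 and 158 in WT and 57.2, 44.5 and 49.6 in APP-KI.

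Sox4 encodes a transcription factor of the SoxC group, known from progenitor cells and from signalling by TGF-β. Scaled values of Sox4 were 231, 239 and 225 in WT and 204, 191 and 229 in C3aR-KO. It was 78.7, 94.9 and 97.9 in APP-KI and 127, 139, 117, 119 and 110.2 in APP-KI; C3aR-KO. Here the APP-KI; C3aR-KO libraries lie in between, all 5 above the 3 APP-KI libraries (0.605% of all genes show this) and below the 9 libraries without APP-KI. In C3aR-positive cells Sox4 was 215, 206 and 171 in WT and 119, 109 and 110.1 in APP-KI, also above the APP-KI libraries of unselected cells.

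For each of the 8 genes the lowest of the 9 libraries without APP-KI lay above the highest of the 11 with it, which holds for 2.35% of the 12375 genes with a mean of at least 1 over the 20 libraries. The choice of the genes fixes at least part of this. The ratio of these 2 values was 1.23 for Sox4, 1.50 for Crybb1 and 1.56 for Col6a3. It was between 2.29 and 2.52 for the other 5. In the order of the 6 condition means this step is the 1 that all 8 genes share. Between the other neighbours in that order the libraries overlapped, except that C3aR-KO lay above C3aR-positive WT for Col6a3 and C3aR-positive APP-KI above APP-KI for Sox4. In bulk RNA, fewer cells that make a transcript and less of it per cell cannot be told apart.

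Divided by the length of the gene's exons, the WT levels span a wide range. Crybb1 was the most abundant, at 195 ± 23.1 per kb (SD, n = 3), and Ptger3 the least, at 3.31 ± 0.845 per kb (SD, n = 3). Between them were Serpinf1 with 50.6, Sox4 with 48.3, Gpr165 with 24.3, Sema4b with 20.3, Col6a3 with 12.9 and Tmem44 with 8.80 per kb. These levels describe the chosen genes and were not ranked among all genes.

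The genes were chosen for being low in APP-KI, so what follows on APP-KI against WT describes the choice. In the unselected cells the log2 difference ran from -3.42 for Serpinf1 to -1.28 for Col6a3. Serpinf1, Gpr165 (-3.22), Tmem44 (-3.10), Ptger3 (-3.02) and Sema4b (-2.74) hold the 5 lowest places among the 12405 genes, while Crybb1 (-1.68) is in place 39, Sox4 (-1.35) in 92 and Col6a3 in 111. All 8 were called lower (1.93% of all genes were), and for all 8 each APP-KI library was below each WT library (16.4% of all genes). In the C3aR-positive cells the difference ran from -3.46 for Ptger3 to -0.80 for Sox4, which is in place 1493 of 12314. There, too, all 8 were called lower (9.7% of all genes) with no overlap (25.7% of all genes). The median of all genes in these 6 libraries was -0.17, and -0.03 with the libraries scaled by median ratios. Ptger3, Serpinf1, Tmem44 and Sema4b lost their call in the unselected cells without WT replicate 4 (-2.83, -3.28, -2.94 and -2.53). Ptger3 kept it in 9 of the 14 fits that each left out 1 library, and Serpinf1 in 4. The genes outside the 8 with the largest called falls were Hlf (-2.38), Bank1 (-2.35), Siglece (-2.33), Ecscr (-2.14) and Tspan18 (-2.10) in unselected cells. In C3aR-positive cells they were Kcnk12 (-2.68), Rasgrf2 (-2.58), P2rx1 (-2.54), Mycl (-2.42) and Mmp15 (-2.42).

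The comparison of APP-KI; C3aR-KO with C3aR-KO asks whether the genes fall with APP-KI where C3ar1 is missing. Whether its 8 libraries had a part in the choice of the genes is not stated, so its counts may owe something to that choice too. All 8 genes were called lower, against 2.97% of all genes tested (369 of 12405). For all 8 each APP-KI; C3aR-KO library was below each C3aR-KO library, against 7.34% of all genes. The median log2 difference of the 8 was -2.26, and that of all genes -0.03. Ptger3 was the gene with the lowest difference of all 12405, Serpinf1 was in place 3 and Tmem44 in place 4.

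Among the receptors, Ptger3 fell from a mean of 17.7 ± 3.85 (SD, n = 3) to 2.16 ± 2.25 (SD, n = 5). Its log2 difference was -2.78 (95% confidence interval -4.12 to -1.44, adjusted p = 0.0138 by limma). Gpr165 went from 77.3 ± 23.2 to 15.3 ± 4.90, a log2 difference of -2.27 (-2.97 to -1.57, adjusted p = 0.000513 by limma). Ptger3 was thus left at 12.2% of its mean in C3aR-KO and Gpr165 at 19.7%. Of the secreted and membrane proteins, Serpinf1 went from 113 ± 30.3 to 21.3 ± 9.64, a log2 difference of -2.75 (-4.42 to -1.07, adjusted p = 0.0490 by limma). Sema4b went from 98.4 ± 24.3 to 23.7 ± 3.50, which gave -2.10 (-3.03 to -1.17, adjusted p = 0.00813 by limma). Tmem44 went from 91.4 ± 20.6 to 13.7 ± 8.94, which gave -2.74 (-4.01 to -1.46, adjusted p = 0.0110 by limma). The call of Serpinf1 is close to the threshold and its interval the widest of the 8.

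Col6a3 had the narrowest interval of the 6 genes with a fall of over 2 on the log2 scale and the smallest adjusted p. Its mean went from 279.7 ± 15.8 to 58.6 ± 15.6, a log2 difference of -2.25 (-2.66 to -1.85, adjusted p = 3.19e-06 by limma). Crybb1 went from 205 ± 80.8 to 48.6 ± 10.8, which gave -1.97 (-2.53 to -1.42, adjusted p = 0.000233 by limma). Sox4, the transcription factor, fell least, from 208 ± 19.5 to 123 ± 11.0, which gave -0.76 (-1.03 to -0.49, adjusted p = 0.00174 by limma). In every gene the fall was larger than the SD of either group.

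The fall held in both library series. Within the first (2 libraries against 2) the log2 difference was between -2.99 for Ptger3 and -0.57 for Sox4. Within the second (3 against 1 C3aR-KO library) it was between -2.90 for Tmem44 and -0.99 for Sox4. Without APP-KI replicate 5 and APP-KI; C3aR-KO replicate 2, an alternative added after the data were seen, all 8 genes were called. The call of Serpinf1 depended on single libraries and held in 3 of the 14 fits that each left 1 out, with log2 differences between -3.22 and -2.43. It held without APP-KI replicate 4, without APP-KI replicate 5 and without APP-KI; C3aR-KO replicate 2, and by edgeR it was not called (-2.53, adjusted p = 0.151). Its highest adjusted p over all alternatives was 0.234, by limma with a pseudocount of 0.1. Without C3aR-KO replicate 3 the calls of Ptger3 (-2.94, adjusted p = 0.0507 by limma) and Tmem44 (-2.71, adjusted p = 0.0606 by limma) were lost too. Over all alternatives the adjusted p of Ptger3 reached 0.291, by edgeR. That of Tmem44 ran from 0.000450 to 0.0733, the latter by limma with a replicate block. By edgeR 6 of the 8 were called lower, all but Serpinf1 and Ptger3, against 2.16% of all genes.

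**Figure D2:**
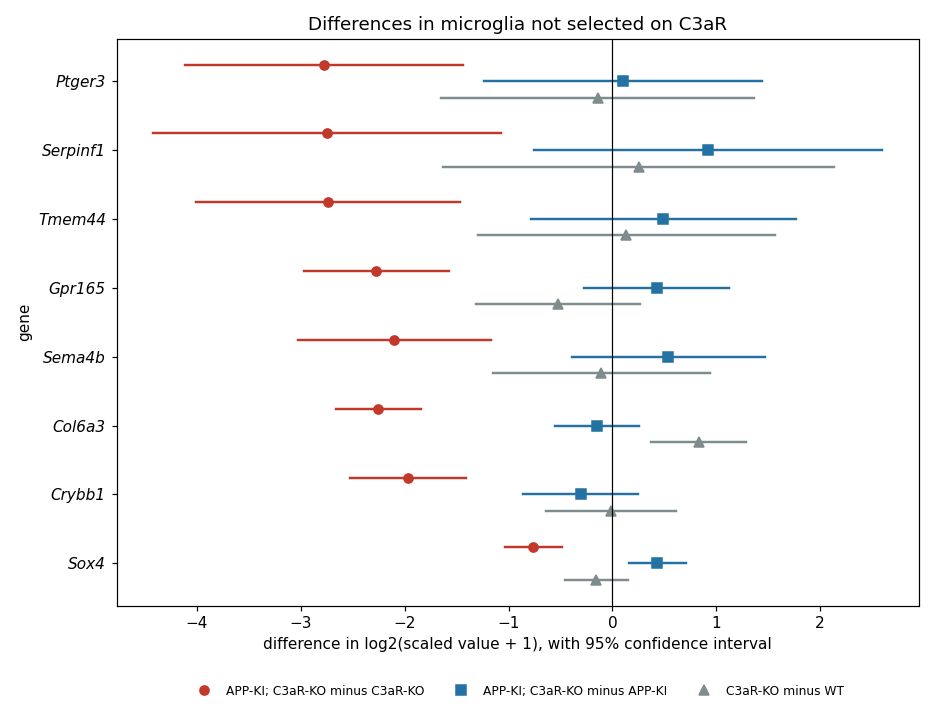
Log2 difference in scaled value + 1 (horizontal axis) of each of the 8 genes (vertical axis) for APP-KI; C3aR-KO against C3aR-KO, APP-KI; C3aR-KO against APP-KI, and C3aR-KO against WT. Points are the limma estimates and bars their 95% confidence intervals; in the comparison of APP-KI; C3aR-KO with C3aR-KO each of the 8 intervals lies below 0, and in that with APP-KI the interval of Sox4 alone leaves out 0.

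The comparison of APP-KI; C3aR-KO with APP-KI asks whether losing C3ar1 brings the genes back. A choice of genes that are low in the APP-KI libraries favours a rise. Of the 8, 0 were called higher (0% of all genes) and 0 lower (0.00806% of all genes, C3ar1 alone). The counts and shares were the same by limma and by edgeR. Since no gene at all was called higher, this count does not set the 8 apart from the rest. At an unadjusted p under 0.05 by limma 1 of the 8, Sox4, was higher (0.306% of all genes) and 0 were lower (0.879% of all genes). The call of C3ar1 was lost without APP-KI replicate 5 (-1.81) or replicate 6 (-1.68). It was lost too with no trend, with a replicate block, with only the 2 groups compared and without the 2 libraries with the fewest genes at 0. This comparison shares its APP-KI; C3aR-KO libraries with the one before.

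Sox4 came closest to a return. Its mean was 90.5 ± 10.3 (SD, n = 3) in APP-KI and 123 ± 11.0 (SD, n = 5) in APP-KI; C3aR-KO, with WT at 232 ± 7.20 (SD, n = 3). The log2 difference was 0.43 (95% confidence interval 0.16 to 0.70), short of a call (adjusted p = 0.998 by limma). All 5 APP-KI; C3aR-KO libraries were above all 3 APP-KI libraries, as in 0.605% of all genes. As a description, this rise is 32.1% of the fall of Sox4 in APP-KI against WT. That fall is how the gene was found, and both values share the APP-KI libraries. Within the library series it was 0.62 in the first and 0.24 in the second, where there is 1 APP-KI library. Without the libraries with the fewest genes at 0 the groups stayed apart, with a mean of 88.3 in 2 APP-KI libraries and 118 in 4 others.

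For Gpr165 the log2 difference was 0.43 (-0.28 to 1.13) and for Ptger3 0.10 (-1.24 to 1.44). Serpinf1 had the largest estimate, 0.92 (-0.76 to 2.60), Sema4b had 0.54 (-0.39 to 1.47) and Tmem44 0.49 (-0.78 to 1.76). These estimates depend on the libraries kept, and most on APP-KI replicate 4, in which all 5 genes had their lowest value of the unselected APP-KI libraries. Without it Ptger3 was at -0.57, Serpinf1 at -0.43, Tmem44 at -0.46, Sema4b at -0.22 and Gpr165 at 0.06. Without the libraries with the fewest genes at 0 instead, the rises were larger and still not called, with 1.28 for Serpinf1, 0.88 for Sema4b, 0.78 for Tmem44, 0.45 for Gpr165 and 0.19 for Ptger3. Within the second library series alone, with 1 APP-KI library and added after the data were seen, Ptger3 was at -0.10, Serpinf1 at -0.28, Tmem44 at -0.22 and Sema4b at -0.08. The matrix gene Col6a3 had an estimate of -0.15 (-0.55 to 0.26) and Crybb1 one of -0.31 (-0.87 to 0.25), both away from a return.

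Set beside the fall, the intervals describe how large a return could be. As a percentage of the fall in APP-KI against WT, the upper end of the interval was 14.9% for Crybb1, 20.3% for Col6a3 and 35.0% for Gpr165. It was 47.7% for Ptger3, 52.2% for Sox4, 53.5% for Sema4b, 57.0% for Tmem44 and 76.0% for Serpinf1. The fall that serves as the base is itself an estimate that the choice of the genes can enlarge, and its error is not in these figures. For each of the 8 genes the upper end lay below the estimated fall. The genes were chosen for that fall and several rises depend on the libraries kept. These figures are therefore a description and do not test a full or a partial return.

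C3aR-KO against WT asks what losing C3ar1 does without APP-KI. A choice of genes that are high in the WT libraries favours a fall. Of the 8, 0 were called higher (0% of all genes) and 0 lower (0.00806% of all genes, again C3ar1 alone) with the same counts and shares by limma and by edgeR. At an unadjusted p under 0.05 by limma 1 was higher (0.992% of all genes) and 0 lower (1.78% of all genes). The 1 higher was Col6a3, which went from 154 ± 11.2 in WT to 279.7 ± 15.8 in C3aR-KO (SD, n = 3 each). Its log2 difference was 0.83 (95% confidence interval 0.38 to 1.29, adjusted p = 0.995 by limma), and each C3aR-KO library was above each WT library, as in 9.16% of all genes. Over the alternatives it ran from 0.25, with a replicate block, to 0.96, in the second series alone. For the other 7 the difference was between -0.52 for Gpr165 and 0.25 for Serpinf1, with 0 inside each interval. The call of C3ar1 itself was lost without WT replicate 4 (-2.42), with no trend, with a replicate block and with only the 2 groups compared.

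A test of whether the effect of APP-KI differs with and without C3ar1 used all 4 genotypes, and the choice of the genes can bear on it through the WT and APP-KI libraries. It called 0 of the 8 higher (0% of all genes) and 0 lower (0% of all genes), with the same counts and shares by limma and by edgeR. At an unadjusted p under 0.05 by limma 1 was higher (0.895% of all genes) and 1 lower (0.742% of all genes). The 1 lower was Col6a3, at -0.98 (-1.60 to -0.35), whose fall with APP-KI began from a higher level in C3aR-KO. The 1 higher was Sox4, at 0.59 (0.17 to 1.01), whose fall with APP-KI was smaller without C3ar1. Both had an adjusted p of 0.998 by limma. Over the alternatives the value of Sox4 ran from 0.25 to 0.71 and that of Col6a3 from -1.36 to -0.78.

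Markers of other cells were read beside these results, because the gate of CD45-mid and CD11b-positive cells can hold other macrophages. The summed scaled value of 6 border macrophage markers (Mrc1, Cd163, Lyve1, Pf4, F13a1 and Cbr2) was 438, 1182 and 987 in WT and 519, 355 and 589.6 in C3aR-KO. It was 276, 256 and 265 in APP-KI and 208, 189.8, 347, 308 and 246 in APP-KI; C3aR-KO. In C3aR-positive cells it was 692, 623 and 471 in WT and 394, 178 and 179 in APP-KI. The sum thus lay lower with APP-KI, like the 8 genes but with overlap (178 to 394 with it, 355 to 1182 without), and its part in their fall was not tested. Mrc1 had the highest mean of the 6, with 79.6 to 638 over the 20 libraries, while Pf4 was at 0 in 3 libraries and Cbr2 in 1. Stab1, a gene that border macrophages also express, is among the nearest in pattern to Crybb1 and Col6a3, as given below.

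Fibroblasts and mural cells, the main makers of collagen VI in most tissues, were near absent. The sum of their 10 markers was between 4.65 and 88.4, the highest in APP-KI replicate 5. Col1a1 was at most 7.55 and Lum at 0 in 10 libraries. Col6a1 and Col6a2, the chains that pair with Col6a3 in the best known form of collagen VI, had WT means of 0.257 ± 0.223 and 0.261 ± 0.226 (SD, n = 3 each), so that Col6a3 was read with next to none of its partners. The endothelial sum (6 markers) was between 40.9 and 92.3 without APP-KI and between 78.5 and 325 with it. Its rise is that of Flt1, which was between 6.97 and 22.1 without APP-KI and between 78.2 and 313 with it. The sum of the other 5 was instead lower with APP-KI, with overlap, between 0.294 and 43.4 (median 14.9) against 34.0 to 70.2 (median 46.2) without it. The oligodendrocyte lineage sum (6 markers) was between 71.6 and 154 without APP-KI and between 231 and 442 with it. Its gap rests on Cspg4, between 2.02 and 12.01 without APP-KI and between 101 and 283 with it, while the other 5 were higher too but overlapped (62.3 to 150.5 without, median 96.4, and 94.0 to 161 with, median 148.9). Mog was at most 1.78 and Olig1 at most 3.57. The part of these cells in the result was not tested. The astrocyte sum (6 markers, Slc1a3 the most abundant) was between 207 and 394, and that of neurons between 0.0452 and 19.8. That of monocytes and neutrophils was between 29.0 and 704 and that of T, B and NK cells between 0.791 and 19.3, and in these last 4 sums the libraries with and without APP-KI overlap.

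Lists of related genes, none of which holds a member, show whether genes of the same family or setting moved where C3ar1 is missing (APP-KI; C3aR-KO against C3aR-KO, median of all genes -0.03). Of all genes 3.96% were called higher there and 2.97% lower. Of 13 tested genes of prostaglandin synthesis and reception, 0 were higher and 2 lower, with a median of 0.06. The lower ones were Ptgs1, the constitutive cyclooxygenase (-0.51, adjusted p = 0.0320 by limma), and Ptgds, a prostaglandin D2 synthase (-1.66, adjusted p = 0.0497 by limma). The fall of Ptger3 was thus not shared by most of the pathway. Ptger4, another prostaglandin E2 receptor, had means of 16.8 ± 19.7 in C3aR-KO and 34.7 ± 4.95 in APP-KI; C3aR-KO and was not called. The 2 calls are fragile, since Ptgs1 held in 6 and Ptgds in 3 of the 14 fits that each left out 1 library.

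Of 14 serpins and receptors of PEDF, 2 were higher and 0 lower, with a median of 0.19. Serpine2, an inhibitor of thrombin and related proteases, rose by 1.38 (adjusted p = 0.0247 by limma) and Plxdc2, a receptor of PEDF, by 0.69 (adjusted p = 0.0181 by limma), where Serpinf1 fell. Their calls held in 9 and 12 of the 14 fits that left out 1 library. Of 14 class 4 semaphorins and receptors of semaphorins of any class, 3 were higher and 2 lower, with a median of 0.01. The rises were in Plxna2 (4.45), Nrp1 (1.59) and Nrp2 (0.87), and the falls in Plxna4 (-1.07) and Plxnb3 (-1.51, called in 6 of the 14 fits). All 5 are plexins or neuropilins, receptors or co-receptors of semaphorins, and whether they bind Sema4b was not examined. The other class 4 semaphorins tested were not called.

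Of 7 genes of collagen VI and its receptors 1 was higher, Cspg4 (4.10, adjusted p = 3.22e-07 by limma), a proteoglycan that binds collagen VI, and the median was -0.18. Of 8 other crystallins 0 were called, with a median of 0.02. Of 8 other Sox factors 2 were higher, Sox5 (2.57) and Sox7 (2.84), and 0 lower, with a median of 0.23. Sox4 was thus the tested Sox gene with a called fall. Of 27 G protein-coupled receptors of microglia 1 was higher and 3 lower, with a median of -0.43 (0 to 3 higher and 2 to 5 lower when 1 library was left out). Hcar2, a receptor for hydroxy fatty acids, rose by 2.20 (adjusted p = 0.0311 by limma, called in 7 of the 14 fits that left out 1 library). Among the lower ones was the leukotriene receptor Cysltr1, at -0.70 and called in 9 of the 14 fits.

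Of 20 homeostatic genes 0 were higher and 2 lower, Siglech (-0.69) and Ecscr (-2.04), with a median of -0.43. This count is sensitive to the libraries, with 2 to 7 lower when 1 was left out, 7 without the libraries with the fewest genes at 0 and 11 in the second series alone, where 1 C3aR-KO library is left. Of 17 plaque-associated genes 16 were higher and 0 lower, with a median of 2.74, and only Ctsd was not called (13 to 17 higher when 1 library was left out). The largest rises were those of Gpnmb (8.74), Cst7 (7.81), Spp1 (6.07) and Lpl (5.54). The 8 genes thus fell in libraries in which the plaque-associated genes rose. When APP-KI; C3aR-KO was set against APP-KI, 0 genes of any of these 9 lists were called higher (0% of all genes). None but C3ar1 was called lower (0.00806% of all genes), so the lists do not differ from all genes there.

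As a description, APP-KI against WT in unselected cells (2.22% of all genes called higher and 1.93% lower) called 1 prostaglandin gene lower, 1 gene of the serpin list higher, 3 semaphorin receptors higher and 1 lower, and 1 gene of the collagen VI list higher. It called 0 crystallins, 2 Sox factors higher, 1 G protein-coupled receptor higher and 4 lower, 4 homeostatic genes lower and 12 plaque-associated genes higher. With 1 library left out these counts moved, to 0 to 2 Sox factors higher and 3 to 10 G protein-coupled receptors lower. Homeostatic genes lower ran from 1 to 10 and plaque-associated genes higher from 9 to 14. The prostaglandin list had 0 to 1 lower, the serpin list 0 to 2 higher and the semaphorin list 1 to 2 lower. G protein-coupled receptors higher ran from 0 to 2. In C3aR-positive cells (13.01% of all genes called higher and 9.7% lower) the same lists had 3 higher and 2 lower, 4 and 1, 5 and 3, 2 and 0, 0 and 2, 1 and 0, 6 and 12, 0 and 9, and 17 and 0, in the order above. With 1 library left out these became 1 to 3 and 0 to 2, 3 to 4 and 0 to 1, 5 to 6 and 1 to 3, 1 to 3 and 0, 0 and 0 to 1, 1 to 2 and 0, 6 and 9 to 13, 0 and 7 to 13, and 17 and 0. Of the falls there, those of Ptgs1, Pnpla2, Plxna1, Plxnb3, Cryba4, Crybg3, Cx3cr1, Golm1, Siglech, P2ry6 and Lpar6 were no longer called with the libraries scaled by median ratios.

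Likeness of pattern was measured as the root mean square difference in log2(scaled value + 1) over the 20 libraries, each gene centred on its own mean, among 12374 genes. Ptger3 and Tmem44 were nearest to each other (0.48), Gpr165 had Sema4b as its nearest gene (0.43), and Serpinf1 had Tmem44 (0.71), Sema4b (0.73) and Ptger3 (0.76). Col6a3 and Crybb1 were 0.37 apart. Sox4 was nearest to none of the members and had Soga1 (0.15) and Abcc3 (0.16) beside it.

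Outside the 8, Mmp28, a secreted metalloprotease, lay near Ptger3 (0.60) and Tmem44 (0.54). Hlf, a PAR bZIP transcription factor (0.45), and the tetraspanin Tspan18 (0.49) lay near Gpr165. Siglece, an inhibitory receptor for sialic acids (0.37), and Actn1, an actin cross-linker (0.49), lay near Sema4b. Nhs (0.36) and Stab1, a scavenger receptor (0.38), lay near Col6a3, and Stab1 (0.22), Filip1l (0.34) and Ggt5 (0.35) near Crybb1. All 20 libraries are part of this measure, so it finds genes that share the fall, and no comparison between the conditions tests them anew.

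The 8 genes lie on 8 chromosomes (GRCm38, GENCODE M21), so they share no locus. Ptger3 is at chr3:157566892-157645888 on the plus strand, Gpr165 at chrX:96713441-96719388 on the plus strand and Serpinf1 at chr11:75409769-75422701 on the minus strand. Sema4b is at chr7:80186841-80226527 on the plus strand, Tmem44 at chr16:30511855-30550842 on the minus strand and Col6a3 at chr1:90765923-90843971 on the minus strand. Crybb1 is at chr5:112255815-112269585 on the plus strand and Sox4, which has 1 exon, at chr13:28948919-28953713 on the minus strand. The exon of Sox4 shares 2616 bases with the lincRNA Gm26735 on the opposite strand, which has no value of its own in the data. Whether reads were counted by strand is not stated, so reads of that RNA in the value of Sox4 cannot be told apart.

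The protein-coding genes next to the members were read in APP-KI; C3aR-KO against C3aR-KO. Mlph, 71114 bases from Col6a3, fell by 1.13 on the log2 scale (adjusted p = 0.00212 by limma), and Idh2, 71449 bases from Sema4b, fell by 0.81 (adjusted p = 0.00156 by limma). Tpst2, 7106 bases from Crybb1, fell by 0.75 (adjusted p = 0.0166 by limma), a call lost without C3aR-KO replicate 1 (-0.62) or replicate 3 (-0.70). Other neighbours were not called. Cib1 lies 620 bases from Sema4b (-0.98, adjusted p = 0.130 by limma), and Cryba4, another crystallin, lies 3297 bases from Crybb1 (-1.24, adjusted p = 0.309 by limma). Smyd4 (-0.51) and Serpinf2 (0.30) on either side of Serpinf1 were not called, nor were Zranb2 (-0.14), Atp13a3 (-0.22), Lsg1 (0.07), Cops8 (-0.45) and Cdkal1 (-0.18), and the others had a mean under the filter. Of the 12 neighbours tested, next to 7 of the members, 3 were thus called lower (2.97% of all genes were), each by less than the member beside it.

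Promoters are shown because the 8 genes share the fall for which they were chosen while lying on 8 chromosomes. RefSeq promoters (GRCm38.p6, 300 bases each) were found for all 8 genes, with 2 for Sema4b. The letters of 6 motifs were searched on both strands. GAGGAAGT, as bound by the macrophage factor PU.1, was in none of these windows and in 3.20% of the 32851 promoters of the table. CAGAC, the box bound by SMAD proteins of the TGF-β pathway, was in those of all members but Sema4b, where 49.6% of all promoters have it. ACGTG, the core bound by hypoxia-inducible factors, was in those of Ptger3, Serpinf1 and Sema4b, where 19.6% of all have it. CANNTG, the E-box, which can overlap ACGTG, was in all but those of Tmem44, Col6a3 and the first of Sema4b (72.3% of all). TATAAA was in those of Gpr165 and Crybb1 (13.6% of all), and CCAAT in those of Serpinf1, Gpr165, Crybb1 and Sox4 (37.4% of all). A match is a description of letters and not a site. In APP-KI; C3aR-KO against C3aR-KO, Ptger3 is the receptor with the largest fall and Sox4, the transcription factor, fell least. Sema4b has the core in both of its promoters, and Crybb1 is the crystallin. Shown 5′ to 3′ on the gene's strand are their windows, with CAGAC and ACGTG on either strand in capitals. They are at chr3:157566626-157566925 (plus strand) for Ptger3, chr7:80186620-80186919 (plus strand, the first of its promoters) for Sema4b, chr5:112255570-112255869 (plus strand) for Crybb1 and chr13:28953650-28953949 (minus strand) for Sox4.
Ptger3: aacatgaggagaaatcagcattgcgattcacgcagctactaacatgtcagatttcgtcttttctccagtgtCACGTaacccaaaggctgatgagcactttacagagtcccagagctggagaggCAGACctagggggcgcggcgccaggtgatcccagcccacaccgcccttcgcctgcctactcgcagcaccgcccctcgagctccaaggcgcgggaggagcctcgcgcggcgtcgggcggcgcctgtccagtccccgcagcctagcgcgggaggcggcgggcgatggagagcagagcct
Sema4b: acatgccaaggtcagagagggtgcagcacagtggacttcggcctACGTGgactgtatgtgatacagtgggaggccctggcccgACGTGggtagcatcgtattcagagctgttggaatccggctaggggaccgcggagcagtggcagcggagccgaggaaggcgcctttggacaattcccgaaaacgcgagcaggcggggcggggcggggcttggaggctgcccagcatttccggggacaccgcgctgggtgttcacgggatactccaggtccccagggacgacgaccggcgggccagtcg
Crybb1: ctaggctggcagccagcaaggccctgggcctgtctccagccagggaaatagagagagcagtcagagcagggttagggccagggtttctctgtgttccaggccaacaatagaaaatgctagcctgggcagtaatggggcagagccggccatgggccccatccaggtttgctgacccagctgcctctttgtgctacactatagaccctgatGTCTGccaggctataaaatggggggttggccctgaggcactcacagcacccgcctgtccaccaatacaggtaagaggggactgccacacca
Sox4: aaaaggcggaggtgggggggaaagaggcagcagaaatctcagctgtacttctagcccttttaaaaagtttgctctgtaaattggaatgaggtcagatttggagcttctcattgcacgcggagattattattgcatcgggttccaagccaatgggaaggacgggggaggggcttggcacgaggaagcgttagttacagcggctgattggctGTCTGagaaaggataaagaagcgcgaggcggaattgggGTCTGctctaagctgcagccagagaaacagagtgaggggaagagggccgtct
The window of Sema4b holds ACGTG at 2 places and that of Ptger3 holds its reverse complement at 1, while those of Crybb1 and Sox4 hold only the SMAD letters among these 2 motifs.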

How the data were processed

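RNA of sorted microglia was sequenced in 20 libraries. The authors trimmed reads with cutadapt, aligned them to mm10 with TopHat v2.0.9 and counted them with featureCounts. Although the authors call the deposited values FPKM, each is a signal equal to a gene's reads over the 75th percentile in its library, and gene length does not enter. Rounding to whole reads worked for 100% of values in all 20 libraries (tolerance 0.1). The tests had been written for FPKM and were kept on the log scale.

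Values were multiplied by 35.1, and log2(value + 1) was tested with limma 3.58.1 (R 4.3.3) with a mean-variance trend, for genes with a mean of at least 1, with Benjamini-Hochberg adjustment over all genes and a threshold of 0.05. The 14 unselected libraries were fitted together with a term for the series that their library numbers give, and the 6 C3aR-positive libraries alone. Library totals ran from 13939559 to 76608464 reads. The alternatives were edgeR 4.0.16 on the recovered reads, pseudocount, filters, median ratio scaling, no trend, a stricter threshold, a replicate block, no series term, only the groups compared, and each library left out. The fits without the libraries with the fewest genes at 0 and within the second series were added after seeing the data. The fit was also run on simulated data, and no result given here rests on that run.

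The genes and lists were chosen with earlier results of these data known. Named are the 8 genes, the 3 genes nearest to each in pattern, the 5 other largest called falls per APP-KI against WT comparison, called genes of the lists, and adjacent genes. Not every gene that meets these rules is printed. Of the called plaque-associated genes the 4 with the largest rise are printed, and list genes of the APP-KI against WT comparisons are given by counts. Other genes named (Ptger4, Col6a1, Col6a2, Ctsd) were picked after their values were seen. Figures and other steps used Python 3.11.15, numpy 2.4.6 and pandas 2.3.3.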

Additional observations from a re-analysis of the deposited data

How the results depend on the processing

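The fall of the 8 genes in APP-KI; C3aR-KO against C3aR-KO kept its direction under all alternatives run, and its side of the threshold in 178 of 208 results per gene, with 30 weaker. The number of the 8 called was 2 at an adjusted p under 0.0005, 5 with a replicate block, which ends the calls of Ptger3, Serpinf1 and Tmem44, and 5 to 8 with 1 library left out, the lowest without C3aR-KO replicate 3. For APP-KI against WT it was 5 with no filter, 5 by edgeR, 2 at an adjusted p under 0.0005, 4 with only the 2 groups compared, and 4 to 8 with 1 library left out, the lowest without WT replicate 4. In C3aR-positive cells it was 5 at an adjusted p under 0.0005 and 8 to 8 with 1 left out. In the interaction, C3aR-KO against WT and the test of a return it was 0 under all alternatives. Libraries of equal replicate number showed no common likeness (r of the deviations from the group means between -0.31 and 0.25). With so few libraries per group this cannot exclude a pairing, so the calls lost with the block remain uncertain.

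Values that were not called changed sign as follows, and the cause was not tested. When APP-KI; C3aR-KO was set against APP-KI, Ptger3 was -0.23 with a replicate block, and in the second series alone Ptger3 was -0.10, Serpinf1 -0.28, Tmem44 -0.22 and Sema4b -0.0820. With 1 library left out Ptger3 ran from -0.57 to 0.64, Serpinf1 from -0.43 to 1.76, Tmem44 from -0.46 to 1.16 and Sema4b from -0.22 to 1.03. For C3aR-KO against WT, Ptger3 was 0.0731 with a pseudocount of 0.1 and 0.0541 without the libraries with the fewest genes at 0, Crybb1 was 0.0482 by edgeR, 0.0185 with no library series term and 0.11 with only the 2 groups compared, Tmem44 was -0.29 with a block, and Serpinf1 was -0.0777 with no library series term. In the second series alone Serpinf1 was -0.14, Gpr165 0.0637, Sema4b 0.0251 and Crybb1 0.64. With 1 library left out Ptger3 ran from -0.28 to 0.0469, Serpinf1 from -0.0453 to 0.62, Sema4b from -0.26 to 0.11 and Crybb1 from -0.48 to 0.32. For the interaction, in the second series alone, Serpinf1 was -0.14, Tmem44 -0.48, Gpr165 -0.0203 and Sema4b -0.11. With 1 library left out Ptger3 ran from -0.35 to 0.92, Serpinf1 from -0.53 to 1.59, Tmem44 from -0.48 to 0.95, Sema4b from -0.0268 to 1.11 and Crybb1 from -0.60 to 0.23. Under median ratio scaling 48 of 48 levels moved by less than 1 SD, and Serpinf1 (adjusted p = 0.0562 by limma) and Ptgds (adjusted p = 0.0594 by limma) lost their call in APP-KI; C3aR-KO against C3aR-KO.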
